A study of Mus musculus with 15 samples.

Results

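The mitochondrial ribosomal proteins on the arrays were 68 genes read by 71 probes, taken as every probe whose single gene symbol began with Mrpl or Mrps and a number, out of 12909 genes with 1 symbol and 17195 probes. Of these, 43 were Mrpl genes and 25 were Mrps genes. Values were enough for a test in 61 of the 68, meaning at least 3 measured arrays in each of the groups, and 39 had values on all 15 arrays. The other 7 (Mrpl9, Mrpl10, Mrpl19, Mrpl51, Mrps2, Mrps22 and Mrps34) entered no test.

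The samples were total RNA of mouse alveolar macrophages, the resident phagocytes of the airspaces, each set against a common macrophage reference RNA on a 2-colour array. There were 3 groups of 5 arrays: wild type (b6+/+), lacking the integrin beta6 subunit (beta6 null, b6-/-), and beta6 null with TGFb1 (b6-/-TGFb+/+). Every group, wild type included, was labelled as given doxycycline, a drug used to switch on inducible transgenes. The labels gave no strain, age, sex, promoter of the TGFb1 transgene or number of animals behind a sample, and wild type with TGFb1 was not analysed here. The labels did not say that the arrays of a group came from separate animals, so a p-value here reflects the scatter among samples only, and that scatter may be technical.

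Mitochondria keep a ribosome of their own, built from RNA encoded in mitochondrial DNA and from proteins encoded in the nucleus, made in the cytosol and imported. It has a large and a small subunit and translates only the few messages of the mitochondrial genome, which encode core subunits of oxidative phosphorylation. Some of its proteins descend from bacterial ribosomal proteins and others have no bacterial counterpart, and their genes are known for promoters with sites of NRF1, GABPA and YY1.

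Promoter sequences were looked up because the members were read as 1 nuclear-encoded group. Of the 68 members, 60 had a RefSeq promoter window on GRCm38.p6, 250 bases before to 50 after the gene's start. The NRF1 motif GCGCATGC, on either strand, lay in 7 of the 60 (11.7%), against 3.05% of 27025 genes. The ETS family motif of GABPA, CCGGAAGT, lay in 8 (13.3% against 4.31%), and the YY1 motif AAGATGGC in 11 (18.3% against 3.19%). The E-box CACGTG, which MYC can bind, lay in 4 (6.67% against 8.09%). The 4 motifs have different letters, and both strands were searched for each. The 60 members had 63 windows, and 26 of the 60 members held at least 1 motif. These matches describe letters, not binding. The 150 bases upstream of Mrps30, Mrpl32 and Mrpl16 are printed. These members were among the 5 with the smallest p between beta6 null with TGFb1 and beta6 null. The stretches of Mrps23 and Mrps17, also among the 5, overlap their own annotated gene and were left out. No gene of the RefSeq table, the member's own included, overlaps the printed stretches. They lie at chr13:118387253-118387402 (minus strand), chr13:14613038-14613187 (minus strand) and chr19:11770265-11770414 (plus strand), 5′ to 3′, and capitals mark a motif.
Mrps30: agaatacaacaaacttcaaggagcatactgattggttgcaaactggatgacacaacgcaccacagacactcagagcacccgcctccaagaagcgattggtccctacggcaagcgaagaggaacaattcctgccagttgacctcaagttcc
Mrpl32: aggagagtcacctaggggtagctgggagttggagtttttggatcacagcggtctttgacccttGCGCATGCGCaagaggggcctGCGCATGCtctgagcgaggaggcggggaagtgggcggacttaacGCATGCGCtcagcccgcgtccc
Mrpl16: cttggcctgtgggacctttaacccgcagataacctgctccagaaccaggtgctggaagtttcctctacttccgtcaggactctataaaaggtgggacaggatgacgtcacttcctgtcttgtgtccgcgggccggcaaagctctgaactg
Mrpl32 held the NRF1 motif in 3 separate stretches, the first of which reads the same on both strands and so matches in either direction. The printed stretches of Mrps30 and Mrpl16 held none of the 4 motifs.

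All values below are log2 ratios to the reference after each array's median was set to 0, and a difference of 1 is a change of 2-fold. The files do not state the base or the direction of the ratio. Base 2 and sample over reference were taken as likely, the latter because the reference is the first channel. If the ratio were inverted, every sign would turn. The SD of all values ran from 0.841 to 2.01 between arrays, the widest being replicate 2 of wild type and replicate 1 of beta6 null. Missing values made up 9.41% of the members' values and 15.6% of all values. The number of arrays limits the precision.

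On most arrays the mitochondrial ribosomal proteins lay below the array median, and they lay nearest to it in beta6 null with TGFb1. The median over members was -0.54, -0.52, -0.25, -0.42 and -0.13 on the wild type arrays. It was -0.60, -0.46, -0.48, -0.62 and -0.39 on the beta6 null arrays. With TGFb1 it was 0.01, 0.04, 0.01, -0.01 and -0.20. All 5 arrays with TGFb1 lay above all 5 beta6 null arrays, while the ranges of wild type overlapped both. Over the 39 members measured on every array wild type ranged from -0.48 to -0.07, beta6 null from -0.60 to -0.22 and the TGFb1 group from -0.14 to 0.19, with wild type again overlapping both. Members below 0 made up 63.2% to 70.5% of those read on a wild type array, 62.7% to 66.1% on a beta6 null array and 45.8% to 60.7% on an array with TGFb1.

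The scatter among members overlapped slightly between the TGFb1 and beta6 null groups. The SD over members was 0.47 to 0.71 on the arrays with TGFb1, 0.69 to 1.60 for beta6 null and 0.44 to 1.84 for wild type. The spread of all values of an array moved with this, at 0.845 to 1.40 with TGFb1, 0.916 to 1.998 for beta6 null and 0.841 to 2.01 for wild type. Divided by the SD of its array, the members' median was -0.56 to -0.29 in beta6 null and -0.24 to 0.04 with TGFb1, which still did not overlap, and -0.42 to -0.16 in wild type. Of 21 members' values beyond 3 in either direction, 10 lay on the 2 widest arrays, and 1 lay on an array with TGFb1.

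Other measures also differed in level between the groups, most of them with overlapping ranges. Over 19 alveolar macrophage marker genes the array median was -2.51 to -2.06 in beta6 null, -1.28 to -0.21 in wild type and -1.01 to -0.31 with TGFb1. Over 11 monocyte and dendritic cell markers it was 0.67 to 1.36 in beta6 null, -0.50 to 0.47 in wild type and -0.24 to 0.78 with TGFb1. For lymphocytes, 13 T and NK cell markers gave 0.08 to 1.01, -0.09 to 0.24 and -0.11 to 0.20 in that order of groups, and 8 B cell markers gave 0.13 to 1.73, -1.11 to 1.38 and -0.22 to 0.27. Neutrophil markers (8 genes) spanned -0.53 to 1.36, -0.92 to 0.24 and -1.56 to 0.16, and lung epithelial markers (12 genes) -0.75 to 0.60, -0.94 to -0.23 and -0.98 to -0.56. Fibroblast and endothelial markers (9 genes) spanned -0.33 to 0.48, 0.07 to 0.54 and 0.19 to 0.43, and erythroid markers (3 genes) 0.11 to 1.03, -2.79 to 0.67 and -0.12 to 0.40. A ratio to a reference does not show whether a marker was absent. Of these lists, the alveolar macrophage markers alone kept the beta6 null arrays apart from those with TGFb1. The part of these cell types in the members' values was not tested, and in bulk RNA fewer cells of a type cannot be told apart from less RNA per cell. Xist, which coats the silenced X chromosome of female cells, ranged from -4.14 to -2.37 on wild type arrays, from -2.46 to 0.88 on beta6 null arrays and from -3.48 to -2.27 with TGFb1. With the Xist level as a covariate in the fit, the members' median difference between TGFb1 and beta6 null was 0.38 instead of 0.52, and 0 of 13273 features passed in that comparison or between beta6 null and wild type. On every beta6 null array but replicate 4, Xist lay above all arrays of the other groups. The covariate thus also takes up part of the beta6 null difference, and Xist level and group cannot be told apart here. Beta6 null replicate 4, whose Xist of -2.46 lay within the wild type range, had the lowest beta6 null median over all its measured members, -0.62, but the next to highest over the 39 members measured on every array, -0.23.

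The comparison of beta6 null with TGFb1 against beta6 null asks what added TGFb1 changes in the beta6 null. None of the 61 tested members passed an adjusted p of 0.05 (limma, Benjamini-Hochberg over all features), where 0.708% of 13273 features did (0.58% higher and 0.128% lower with TGFb1). With arrays weighted by their scatter 14 members passed, among 1000 of 13273 features (840 higher and 160 lower with TGFb1). Of these 14, Mrpl33 was lower with TGFb1 and the others were higher. Without wild type replicate 2, the members passing were 2, Mrpl32 and Mrps30, among 318 of 13037 features. Before adjustment, 16 members were higher with TGFb1 and 1 lower at p under 0.05, or 26.2% and 1.64%, against 11.1% and 3.85% of all features. These counts were 7 and 3 with Xist as a covariate, 27 and 1 with array weights, 26 and 2 without the 2 widest arrays, and 24 and 1 without wild type replicate 2. The share of all features at that unadjusted p was not counted in these settings, so the members' counts there have no background. Features passing the adjusted p (limma) also moved, to 0, 1000, 321 of 12763 and 318 of 13037 in the same order. In the main fit the members' median difference was 0.52, against 0.12 over all features. There, 47 of 61 differences were above 0 (77%, against 56.7%). Of 48 members with values on all 10 arrays, 11 had every array with TGFb1 above every beta6 null array (22.9%, against 8.35% of such features) and 0 the reverse (1.58%). These counts describe the members and are no test of them as a group. The members' median difference was 0.61 among arrays whose title ended in 1 (3 against 4) and 0.35 among those ending in 2 (2 against 1), a number whose meaning the labels do not give.

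**Figure D1:**
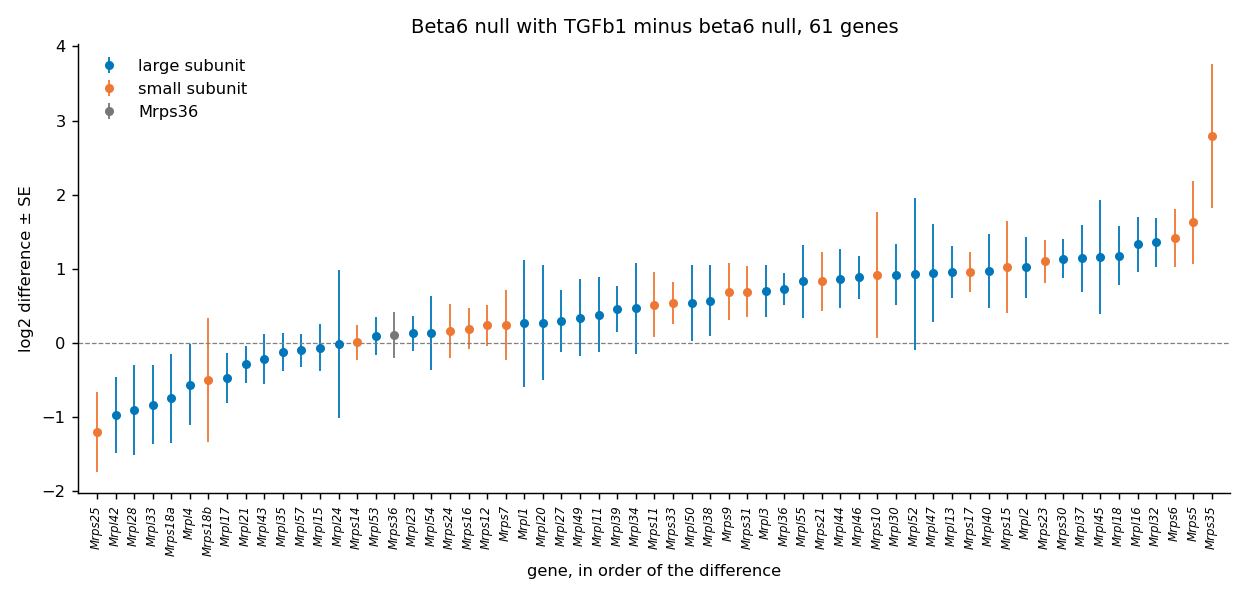
Difference between beta6 null with TGFb1 and beta6 null for the 61 tested members (points, log2) with its standard error from the fit (bars), in order and coloured by ribosomal subunit. Most points lie above 0, from -1.20 for Mrps25 to 2.79 for Mrps35, and the largest have wide errors.

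The members with the smallest p among large subunit proteins were Mrps30, Mrpl32 and Mrpl16. Mrps30, which sits in the large subunit despite its name, was -1.23, -1.35, -0.48, -0.91 and -0.79 in beta6 null and 0.28, 0.27, 0.13, -0.01 and 0.25 with TGFb1. The lowest array with TGFb1 stood clear of the highest beta6 null array. The difference was 1.14 ± 0.27 (SE), or 2.20-fold, with an adjusted p of 0.0684 (limma). In wild type it was 0.01, 0.26, -0.78 and 0.09 on the 4 arrays with a value, near the level with TGFb1 on all but replicate 4.

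Mrpl32, a homologue of a bacterial large subunit protein that a protease of the inner membrane trims before assembly, was -1.98, -2.69, -1.65, -1.61 and -1.80 in beta6 null. With TGFb1 it was -0.07, -0.90, -0.56, -0.51 and -0.92. The groups did not overlap, and the difference was 1.36 ± 0.33 (SE; 2.56-fold, adjusted p 0.0783). The 4 wild type arrays with a value were at -1.59, -0.63, -1.89 and -0.57, of which 2 lay in the TGFb1 range, 1 in the beta6 null range and 1 just above the latter.

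Mrpl16, whose bacterial homologue is a core protein of the large subunit, was -2.58, -1.46, -0.70, -0.62 and -0.49 in beta6 null. With TGFb1 it was 0.69, 0.12, 0.14, 0.08 and -0.23, again with no overlap, and its wild type values were -0.20, -0.01, -0.57, -0.52 and -0.04. Beta6 null replicate 1, a wide array, was the lowest. The difference was 1.33 ± 0.37 (SE; 2.52-fold, adjusted p 0.104), and 0.98 without that array.

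Among small subunit proteins the smallest p were those of Mrps23 and Mrps17. Mrps23, which has no bacterial counterpart, was -1.61, -1.07, -1.38, -1.66 and -0.96 in beta6 null and 0.13, -0.41, 0.10, -0.20 and -0.78 with TGFb1. The groups did not overlap, and the difference was 1.10 ± 0.29 (SE; 2.14-fold, adjusted p 0.0979). Mrps17, a homologue of a bacterial protein that binds the small subunit's RNA, was -1.60, -1.17, -0.95, -1.10 and -1.33 in beta6 null. It was -0.12, -0.53, -0.15, -0.25 and -0.30 with TGFb1, a difference of 0.96 ± 0.27 (SE; 1.95-fold, adjusted p 0.106). Its wild type arrays spread over both, from -1.54 to -0.33.

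The other members without overlap were Mrpl13, Mrpl18, Mrpl36, Mrpl44, Mrpl46 and Mrps15, with differences of 0.73 to 1.18. Mrpl18, of the central protuberance of the large subunit, ran from -2.06 to -0.70 in beta6 null and from -0.37 to 0.28 with TGFb1 (difference 1.18 ± 0.39, SE; adjusted p 0.175). Mrpl36, one of the smallest ribosomal proteins, ran from -0.95 to -0.45 and from -0.20 to 0.44 (0.73 ± 0.22, SE; adjusted p 0.138). Mrps15 was the average of a pair of probes, and 1 of them had values on only 3 arrays of each of these groups, beside ranges of -2.14 to -0.93 and -0.73 to 0.01 for the average.

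**Figure D2:**
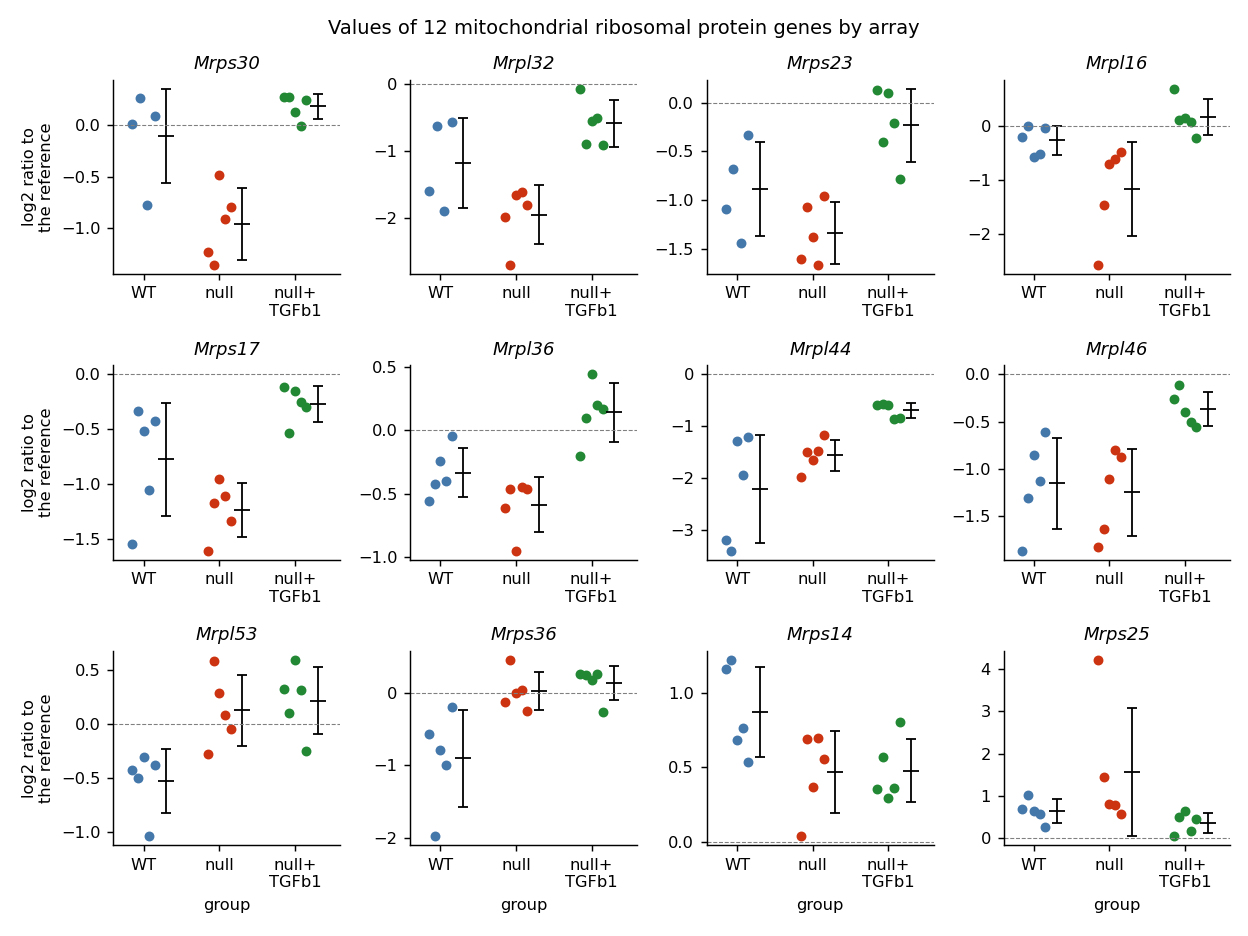
Log2 ratio to the reference of 12 members on each array (points) in wild type (WT), beta6 null (null) and beta6 null with TGFb1, with the mean and SD beside each group; vertical axes differ between panels. In Mrps30, Mrpl32, Mrps23, Mrpl16, Mrps17, Mrpl36, Mrpl44 and Mrpl46 the arrays with TGFb1 lie above all beta6 null arrays. Mrps25 has 1 beta6 null array at 4.21.

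The size of a difference was no guide to its precision. Mrps35, a small subunit protein with no bacterial counterpart, had the largest, 2.79 ± 0.97 (SE; adjusted p 0.21), from 3 beta6 null values of -5.86, -3.30 and 0.04. With TGFb1 it lay between -0.53 and 0.04, so 1 of the 3 null values lay at the top of that range. Mrps5 (1.63 ± 0.55, adjusted p 0.184) rested on 2 beta6 null arrays at -3.84 and -3.70, with the other 3 between -1.40 and -0.77. Mrps6, a homologue of a bacterial small subunit protein, was steadier: 4 beta6 null values lay between -2.81 and -0.76 and the 5 with TGFb1 between -0.25 and -0.03 (1.42 ± 0.39, SE; adjusted p 0.111).

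A minority of members was lower with TGFb1. The smallest p in that direction were those of Mrps25, Mrpl42, Mrpl33, Mrpl28 and Mrpl17, with differences from -1.20 to -0.47 and adjusted p from 0.319 to 0.549. With array weights Mrpl33 passed, at an adjusted p of 0.0327 (limma). Mrps25 was 4.21, 1.44, 0.80, 0.78 and 0.57 in beta6 null and 0.06, 0.50, 0.63, 0.16 and 0.45 with TGFb1. Mrpl42 was 3.28, 0.88, 0.33, 0.03 and -0.003 in beta6 null and 0.08, 0.23, 0.04, 0.05 and -0.75 with TGFb1. Both had their highest value on beta6 null replicate 1. Without that array the differences of Mrps25 and Mrpl42 were -0.53 and -0.38, those of Mrpl17 and Mrpl28 were -0.14 and -0.50, and that of Mrpl33 was -1.38.

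By subunit, the median difference was 0.46 over 41 tested large subunit members and 0.69 over 19 of the small subunit, with 29 and 17 above 0. Mrps36 was put in neither, being known as a subunit of the alpha-ketoglutarate dehydrogenase complex. The difference between subunits was not tested. All 6 measured proteins of the central protuberance (Mrpl18, Mrpl27, Mrpl38, Mrpl40, Mrpl46 and Mrps30) were above 0, with a median of 0.93. The 5 at the peptide exit tunnel, among them Mrpl45, which is known to anchor the ribosome at the inner membrane, had a median of 0.13 and 3 above 0. Mrpl11 was at 0.38, the only tested member of a list of 3 proteins of the stalk where translation factors bind. Members with a bacterial homologue had medians of 0.29 (24, large) and 0.60 (14, small), and those without had 0.57 (17, large) and 0.62 (6, small, Mrps36 among them).

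The comparison of beta6 null with wild type asks what the loss of beta6 changes. None of the 61 members passed (limma), where 0.949% of all features did (0.362% higher and 0.588% lower in beta6 null). At an unadjusted p under 0.05, 3 members were higher and 7 lower in beta6 null (4.92% and 11.5%, against 4.28% and 7.2%). The balance was not stable: it was 6 higher and 3 lower with quantile normalization, 4 and 4 with equal spread, 4 and 2 with Xist as a covariate or the title ending as a block, 5 and 4 without wild type replicate 3, 5 and 2 without wild type replicate 5, and 3 and 3 without beta6 null replicate 1. Other settings had more lower members: 3 and 10 with array weights and 2 and 9 without wild type replicate 2. The counts were 3 and 9 without wild type replicate 1 or beta6 null replicate 3. The share of all features at that unadjusted p was not counted in these settings, so the members' counts there have no background. In the main fit the members' median difference was -0.11, against -0.05 over all features, and 22 of 61 were above 0 (36.1%, against 46.9%). It was -0.28 without wild type replicate 2 and -0.04 or -0.03 without wild type replicate 3 or beta6 null replicate 3. It was 0.17 among arrays whose title ended in 1 (4 against 2) and -0.14 among those ending in 2 (1 against 3), so its sign was not the same in both.

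Among members lower in beta6 null, Mrps30 was at -0.85 ± 0.28 (SE; adjusted p 0.235, limma) and Mrps6 at -1.24 ± 0.41 (adjusted p 0.25). Mrps6 was -1.07, -0.25, -0.12 and 0.14 in wild type and -1.48, -2.81, -0.76 and -1.22 in beta6 null, so 1 wild type array reached into the beta6 null range. Mrpl16, Mrps5 and Mrpl32 followed, at -0.90, -1.43 and -0.78, with adjusted p of 0.347 to 0.422. Without beta6 null replicate 1 the difference of Mrpl16 was -0.55. The wild type arrays of Mrps5 agreed closely, between -0.77 and -0.64, and its beta6 null arrays ranged from -3.84 to -0.77.

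Among members higher in beta6 null, Mrpl53 alone had no overlap between the groups, out of 39 members with values on all 10 arrays (2.56%, against 1.63% of such features), and 0 had the reverse (2.86%). Mrpl53, a large subunit protein with no bacterial counterpart, was -0.43, -0.50, -0.31, -1.05 and -0.38 in wild type and -0.28, 0.58, 0.28, 0.08 and -0.05 in beta6 null. The gap between the highest wild type and the lowest beta6 null array was small. The difference was 0.66 ± 0.26 (SE; 1.57-fold, adjusted p 0.323). Mrps36 was at 0.93 ± 0.31 (SE; adjusted p 0.231), with wild type from -1.98 to -0.20 and beta6 null from -0.26 to 0.45. Mrpl28, Mrpl17 and Mrps24 were at 1.25, 0.73 and 0.66, with adjusted p of 0.431 to 0.501. Each rested in part on 1 array: Mrpl28 was at 0.69 without wild type replicate 4, Mrpl17 at 0.40 without beta6 null replicate 1 and Mrps24 at 0.38 without wild type replicate 2.

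The large subunit had a median of -0.06 with 17 of 41 above 0, and the small subunit -0.40 with 4 of 19. The central protuberance was at -0.24 (2 of 6 above 0), the exit tunnel at 0.29 (3 of 5) and Mrpl11 of the stalk at -0.79.

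The comparison of beta6 null with TGFb1 against wild type asks how far the TGFb1 group stood from wild type. It shares its arrays with the comparisons above. None of the 61 members passed (limma), and 0% of all features did. At an unadjusted p under 0.05, 8 members were higher and 0 lower (13.1% and 0%, against 4.25% and 2.03% of features). The median difference was 0.34, against 0.07 over all features, and 49 of 61 were above 0 (80.3%, against 55.4%). Within arrays whose title ended in 1 it was 0.64 (3 against 2), and 0.14 among those ending in 2 (2 against 3).

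**Figure D3:**
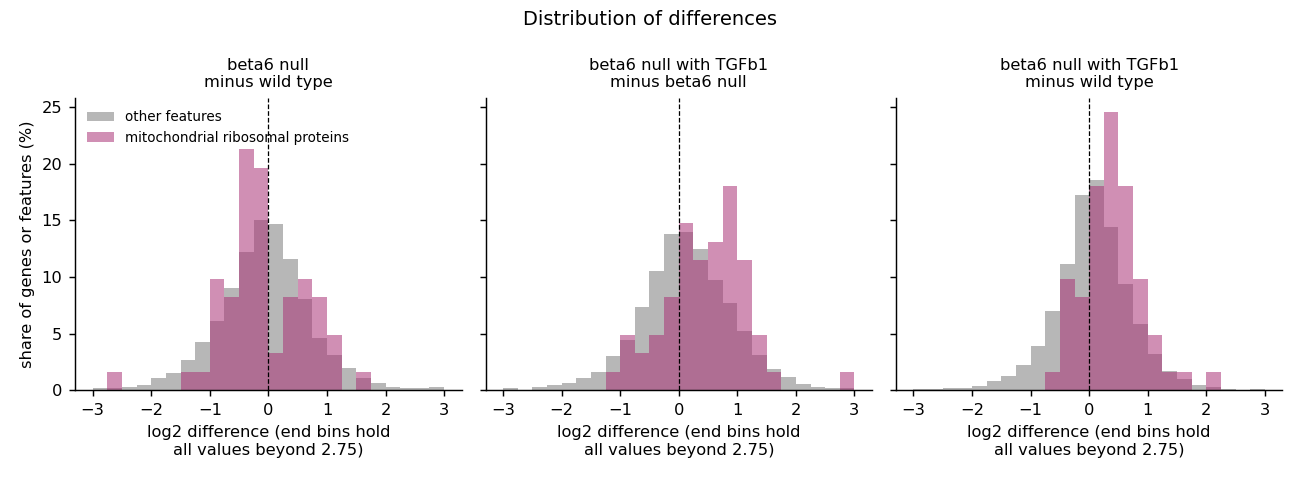
Share of the 61 tested members (purple) and of all other features (grey) by size of the log2 difference, in bins, for each of the 3 comparisons. The members' medians are -0.11, 0.52 and 0.34 from left to right, against -0.05, 0.12 and 0.07 over all features.

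Out of 45 members with values on all 10 arrays, 3 had every array with TGFb1 above every wild type array (6.67%, against 1.74% of such features), namely Mrpl44, Mrpl46 and Mrpl53, and 0 the reverse (0.624%). Mrpl44, which carries a domain related to RNase III, was -3.19, -3.40, -1.29, -1.93 and -1.20 in wild type and -0.59, -0.58, -0.60, -0.86 and -0.84 with TGFb1. Its arrays with TGFb1 lay close together, while wild type replicates 1 and 2 stood far below the rest. The difference was 1.51 ± 0.40 (SE; 2.85-fold, adjusted p 0.651). In beta6 null it was -1.99 to -1.18, below the TGFb1 range and overlapping the wild type range.

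Mrpl46, of the central protuberance, was -1.87, -1.31, -0.85, -1.13 and -0.61 in wild type, -1.83, -1.63, -1.11, -0.81 and -0.87 in beta6 null, and -0.26, -0.11, -0.40, -0.50 and -0.56 with TGFb1. Wild type and beta6 null covered nearly the same range, and all arrays with TGFb1 lay above both. The difference was 0.79 ± 0.29 (SE; adjusted p 0.787) against wild type and 0.88 ± 0.29 (adjusted p 0.167) against beta6 null. Mrpl46 lies head to head with another member, Mrps11, on chromosome 7: the 150 bases upstream of Mrps11 (chr7:78782981-78783130, plus strand) and of Mrpl46 (chr7:78783090-78783239, minus strand) overlap. Mrps11 did not share the separation: it was -1.08 to 0.21 in beta6 null and -0.55 to 0.53 with TGFb1 (difference 0.52 ± 0.43, SE; adjusted p 0.615).

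Mrpl53 and Mrps36 were at 0.75 ± 0.26 and 1.04 ± 0.31 (SE; adjusted p 0.757 for each) against wild type, while the difference between the TGFb1 and beta6 null groups was 0.09 and 0.11. Both had their lowest mean in wild type. Mrpl38, of the central protuberance, was at 1.41 ± 0.48 (adjusted p 0.757), with wild type from -2.73 to -0.39. The lower members were closer to 0: Mrps14 at -0.39 ± 0.24, Mrps7 at -0.61 ± 0.47, Mrpl21 at -0.29 ± 0.25, Mrpl35 at -0.21 ± 0.25 and Mrpl11 at -0.41 ± 0.51 (SE), with adjusted p of 0.82 to 0.905. Without wild type replicate 2 Mrpl11 was at -0.06, and at -0.19 without TGFb1 replicate 2. Without TGFb1 replicate 1 Mrpl35 was at -0.06 and Mrpl21 at -0.16. Mrps14 and Mrps7, which belong to the head of the small subunit, were above the array median in wild type on every array, at 0.54 to 1.22 and 0.62 to 1.81. By subunit the medians were 0.36 (large, 33 of 41 above 0) and 0.30 (small, 15 of 19), with 0.68 over the 6 proteins of the central protuberance and 0.42 over the 5 of the exit tunnel.

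The 3 genes with a pair of probes show how far probes of 1 gene agreed. Against beta6 null, the differences with TGFb1 were 0.77 and 0.64 for Mrpl3, 0.16 and 0.31 for Mrps12 and 1.17 and 0.64 for Mrps15, the same direction in each pair. Between beta6 null and wild type each pair went opposite ways, at 0.40 and -0.30, 0.40 and -0.49, and 0.46 and -0.86. Against wild type, the probes of Mrps12 (0.56 and -0.18) and Mrps15 (1.62 and -0.23) were also opposite, while those of Mrpl3 were 1.17 and 0.34.

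Of the mitochondrial ribosomal proteins that carry other names, 3 were tested. Dap3, a GTP-binding protein of the small subunit, was -1.32, -0.73, -0.04, -1.01 and -0.51 in beta6 null and 0.02, -0.02, -0.32, -0.11 and -0.15 with TGFb1, and 1 null array overlapped (difference 0.61 ± 0.26, SE; adjusted p 0.297). Chchd1 was at 0.81 ± 0.33 (adjusted p 0.264). Ptcd3, an RNA-binding protein of the small subunit, was at 0.69 ± 1.16 (adjusted p 0.832), its wild type replicate 2 being -5.38. Between beta6 null and wild type the 3 were at -0.32, -0.26 and 0.16, and with TGFb1 against wild type at 0.29, 0.55 and 0.85. Aurkaip1 and Gadd45gip1 were not analysed here.

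The machinery around the ribosome was read from lists of related genes, and 0 genes of these lists passed in any of the 3 comparisons. With TGFb1 against beta6 null, the median was 0.31 over 7 translation factors, 0.33 over 17 genes of ribosome assembly, 0.42 over 9 mitochondrial aminoacyl-tRNA synthetases, 0.43 over 10 genes of mitochondrial DNA and RNA maintenance and 0.38 over 27 genes of protein import. Between beta6 null and wild type these medians were -0.21, -0.13, 0.02, -0.24 and -0.34, and with TGFb1 against wild type 0.10, 0.23, 0.14, 0.37 and 0.13. At an unadjusted p under 0.05 the counts with TGFb1 against beta6 null were 1 of 7, 1 of 17, 3 of 9, 4 of 10 and 7 of 27 higher, and 0, 1, 0, 0 and 1 lower. Between beta6 null and wild type 0 genes of these lists were higher, and 1, 1, 2, 0 and 3 were lower. With TGFb1 against wild type 0, 1, 0, 1 and 2 were higher, and 0, 1, 0, 0 and 0 lower. Over all features 11.1% were higher and 3.85% lower with TGFb1 against beta6 null. The shares were 4.28% and 7.2% between beta6 null and wild type, and 4.25% and 2.03% with TGFb1 against wild type. The counts of these small lists were not tested against those shares.

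The smallest p of these lists belonged to Timm9, a chaperone of the intermembrane space, which was -3.07, -2.63, -1.88 and -1.91 in beta6 null and -0.99, -1.35, -0.51, -0.46 and -0.34 with TGFb1. Its 4 beta6 null values lay below all 5 with TGFb1, and the difference was 1.64 ± 0.36 (SE; adjusted p 0.0524). Rcc1l, of ribosome assembly, was at 1.37 ± 0.34 (adjusted p 0.0836), and Gfm1, the mitochondrial elongation factor G, at 1.18 ± 0.33 (adjusted p 0.106). Tfb2m, a transcription factor of mitochondrial DNA, was at 1.16 ± 0.37 (adjusted p 0.162), and Cars2, which charges mitochondrial tRNA with cysteine, at 1.31 ± 0.43 (adjusted p 0.165). In beta6 null against wild type Timm9, Rcc1l, Gfm1, Tfb2m and Cars2 were at -1.26, -0.95, -0.93, -0.76 and -1.17, with adjusted p of 0.142 to 0.456. Against wild type, the smallest p with TGFb1 were those of Dnajc15 (0.77), Polg2 (0.84), Malsu1 (0.84), Kars (0.56) and Mtres1 (1.61), with adjusted p of 0.787 to 0.865.

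Regulators of mitochondrial genes had medians of 0.14 (beta6 null against wild type), 0.15 (TGFb1 against beta6 null) and 0.38 (TGFb1 against wild type) over 16 genes. With TGFb1 against beta6 null, 3 of the 16 were higher at an unadjusted p under 0.05 (limma), beside 11.1% of all features. Gabpa, the DNA-binding subunit of the factor that reads the ETS motif above, was -2.19, -1.63, -1.58, -1.37 and -0.96 in beta6 null and -0.32, 0.09, 0.13, -0.19 and -0.29 with TGFb1. Its arrays did not overlap, wild type replicate 2 was far off at -4.35, and the difference was 1.43 ± 0.63 (SE; adjusted p 0.303). Myc had the smallest p of the list in that comparison, at 1.19 ± 0.49 (adjusted p 0.273), and Gabpb1, the partner of Gabpa, had it between beta6 null and wild type, at -1.06 ± 0.63 (adjusted p 0.537). Nrf1 was at 0.06 ± 0.35 and Yy1 at 0.49 ± 0.42 with TGFb1 against beta6 null, with adjusted p of 0.955 and 0.634.

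**Figure D4:**
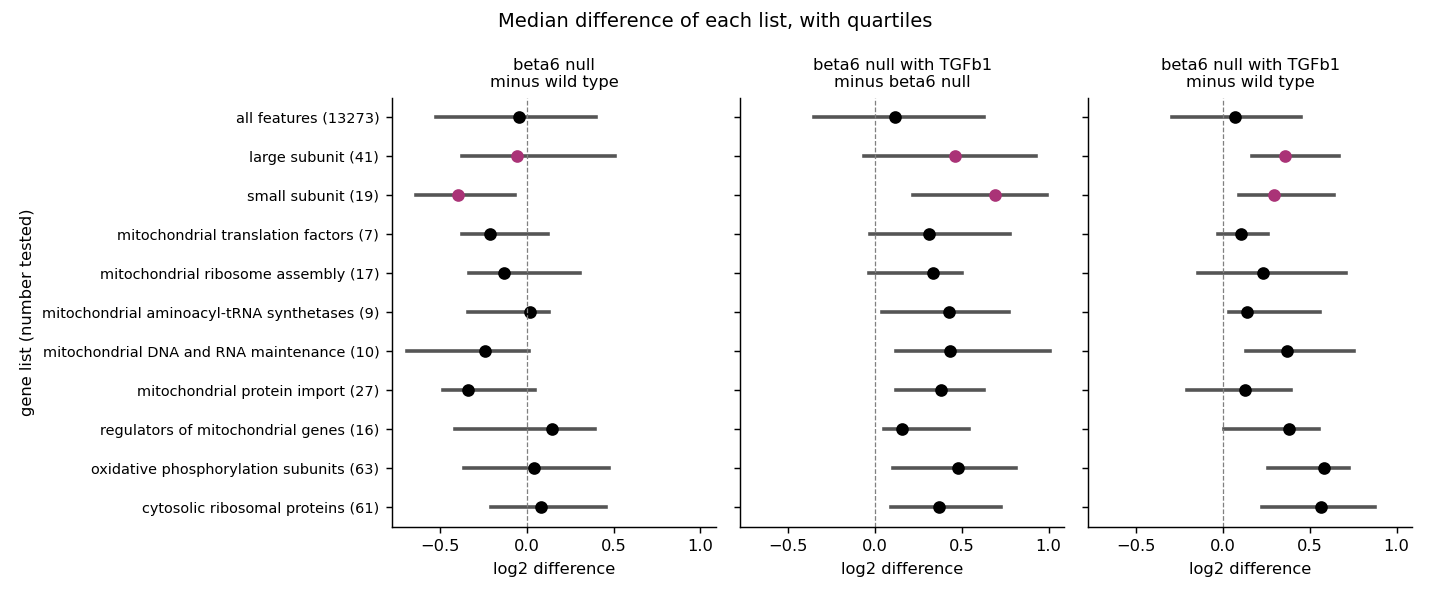
Median log2 difference (points) and quartiles (bars) of the mitochondrial ribosomal proteins by subunit (purple), of related gene lists and of all features, with the number tested, for each of the 3 comparisons. With TGFb1 against beta6 null the medians of all lists are above 0, at 0.15 to 0.69, and that of all features is 0.12.

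The medians of cytosolic ribosomal proteins and of oxidative phosphorylation subunits are given for comparison. With TGFb1 against beta6 null they were 0.37 over 61 genes and 0.48 over 63, beside 0.52 for the mitochondrial ribosomal proteins, with 0 and 1 genes passing. Against wild type they were 0.56 and 0.58, beside 0.34, and between beta6 null and wild type 0.08 and 0.04, beside -0.11. Differences between these lists were not tested.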

How the data were processed

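The deposited values were 1 log ratio per probe and array, treated as log2. How the authors obtained these deposited log2 ratios (scanner, dyes, background correction, normalization) was not given in the sources used here. Their highest value was 9.49. Groups came from the labels, and no label pairs samples. All pairs of arrays correlated positively over probes (lowest r = 0.194).

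Of 17225 probes, 30 control spots, recognised by name, were left out. Platform symbols were updated by Entrez ID through a RefSeq table of GRCm38.p6 for 13869 of the 13972 probes with 1 symbol; 13 probes had several and 3210 were not listed. Arrays were centred on their median, probes of a gene averaged, and a feature was kept if each of the groups had 3 or more arrays with a value (13273 features). Groups (5 arrays each, 3 means) were compared with limma 3.58.1 (lmFit, eBayes; missing values drop out of a gene's fit) in R 4.3.3, with Benjamini-Hochberg adjustment over all features and a threshold of 0.05. Errors are standard errors of the fit, or SDs where so named. Only the limma fit was tried on simulated data, with known shifts put into beta6 null, and its estimates of them were checked. Centring, probe averaging and the filter were not tried in this way.

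The genes, lists, classes and tests were chosen with earlier results of these data known. Genes were named where they passed, had 1 of the 5 smallest p in a direction (each group having 4 or more of its 5 arrays), had arrays without overlap (up to 6 per comparison, by size) or led a list; Dap3, Ptcd3, Chchd1, Aurkaip1 and Gadd45gip1 were also to be named where measured. All other genes named, the motifs, the promoter stretches, the title endings and the bound of 3 were chosen after values were seen. The alternatives tried were no centring, quantile normalization, equal spread, array weights, other filters on missing values, single probes, the title ending as a block, leaving out arrays, 2 groups alone and the Xist level as a covariate.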

Additional observations from a re-analysis of the deposited data

Results flagged for a closer look

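Dixon's test was run on 78 groups of 4 or 5 measured arrays, and 8 had 1 array far from the others. These groups were those of the members named by rule and of the members' median, and a missing value left a group with 4 arrays. Chance alone marks about 1 in 20 groups. Beta6 null replicate 1, one of the 2 widest arrays, was the distant array for Mrps25 (4.21), Mrpl42 (3.28) and Mrps7 (-1.75). Beta6 null with TGFb1 replicate 5 was the distant array for the members' median (-0.20), for Mrpl42 (-0.75) and for Mrps36 (-0.27), each time on the low side. Beta6 null with TGFb1 replicate 1 was low for Mrpl35 (-0.57), and wild type replicate 4 was low for Mrpl53 (-1.05).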

How the results depend on the processing

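No paired analysis was possible because replicate numbers were given in accession order and no label ties a sample of 1 group to a sample of another. The members' median difference kept its sign in all 27 alternatives of each comparison. For TGFb1 against beta6 null it was 0.468 to 0.582 with 1 array left out and 0.384 to 0.589 otherwise, the lowest (0.384) with Xist as a covariate. Against wild type it was 0.266 to 0.469 and 0.266 to 0.403. For beta6 null against wild type it was -0.275 to -0.035 with 1 array left out, lowest without wild type replicate 2, and -0.209 to -0.051 otherwise.

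The number of members passing between TGFb1 and beta6 null was 14 with array weights (1000 of 13273 features passing), 1 (Mrps17) among members with values on all 15 arrays (220 of 6592), 1 (Mrps30) without the 2 widest arrays (321 of 12763), and 0 to 2 with 1 array left out, the 2 being Mrpl32 and Mrps30 without wild type replicate 2 (318 of 13037). It was 0 in the other alternatives, and 0 in all 27 alternatives of the other 2 comparisons. Of the 14 with array weights, Mrpl33 was lower with TGFb1 and the others higher. Array weights lean on the less scattered arrays, and fewer features were tested with values on all 15. The cause of the changes in these counts was not tested. Adjusted p over the alternatives ran from 0.0127 to 0.608 for Mrps30 and Mrpl32 between TGFb1 and beta6 null.

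Over all features, the count passing between TGFb1 and beta6 null was 94 of 13273 (77 higher), and 15 (8 higher) with quantile normalization, 11 (8 higher) with equal spread, 1000 with array weights, 220 of 6592 with values on all 15 arrays, 43 when the title ending was a block, 30 after removing the 2 arrays whose title numbers stood apart (of 11625), 321 of 12763 without the 2 widest and 0 with Xist as a covariate. With 1 array left out it was 23 of 12852 (TGFb1 replicate 4) to 318 of 13037 (wild type replicate 2). Between beta6 null and wild type it was 126 of 13273 (48 higher), and 76 (40 higher), 61 (30 higher) and 433 with the first 3 of these, 64 with the block, 78 and 190 without the 2 pairs of arrays named above, 41 with the 10 arrays alone, 0 with Xist, and 64 to 154 with 1 array left out. Against wild type, 0 to 2 features passed with TGFb1. With 5 arrays a group and spots without a value, small differences in single members are beyond these data.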

Other observations

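The 7 members that entered no comparison had few values. Mrps2 was read on 1 array (1.11, beta6 null replicate 5), and Mrpl10 on 2, at 3.52 in beta6 null replicate 3 and 1.32 with TGFb1 replicate 2. Mrps34 was 1.05 on wild type replicate 2 and 0.08, 4.55 and 2.28 on 3 arrays with TGFb1. Mrpl51 was 1.16 and 0.66 on 2 wild type arrays, -3.59, -1.35 and -0.63 on 3 beta6 null arrays, and -1.26 to 0.52 on 4 arrays with TGFb1. Mrpl9, Mrpl19 and Mrps22 had all 5 arrays with TGFb1 but 2 beta6 null arrays each, at -0.35 and -0.04, 0.02 and -0.38, and -0.82 and 0.17. With TGFb1 they ranged from -0.49 to 0.03, from -0.56 to 1.25 and from -0.87 to 1.34.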
